A study of Mus musculus with 10 samples.

Results

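Cholesterol synthesis and sterol sensing was followed through 7 mouse genes, Hmgcs1, Fdps, Fdft1, Sqle, Nsdhl, Insig1 and Stard4. They were found by the descriptive names of the array spots, which gave 14 spots among the 22818 that were not controls, and 7 of the 12388 gene names on the array. The set was chosen by measured values of this same comparison, Hmgcs1 having stood among the few genes well above the rest, so the ratios below describe the set and no test of separation was applied to them. The spots were read on 2-colour spotted arrays that compared the paraventricular nucleus of the hypothalamus (PVN), a stress-regulating nucleus, between mice kept from their mothers for 24 h and mice that were not separated. Each condition was 1 pool of amplified RNA from 6 animals, built from 3 samples of 2 animals each, and litters were assigned by chance to 1 condition or the other. The sources used here give no strain, sex, age or litter identity. Both pools met on 10 arrays, of which 5 carried the separated pool in Cy5 (Cy5-separated arrays below) and 5 carried it in Cy3 (Cy3-separated arrays). These arrays were technical repeats of 1 comparison, so every SD below is spread between arrays and holds no spread between animals. It is over 10 arrays, called the array SD, unless 1 dye orientation, meaning 1 of these sets of 5 arrays, is named. The array SD includes the difference between the Cy5-separated and Cy3-separated arrays, so it is not measurement noise alone.

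Cholesterol is built from acetyl-CoA through mevalonate, the isoprenoid farnesyl diphosphate, squalene and lanosterol. When sterol in the endoplasmic reticulum is low, SCAP carries the SREBP2 transcription factor to the Golgi, where it is cleaved and released to switch on genes of the whole route, and the INSIG proteins hold SCAP back when sterol is plentiful. The brain makes its own cholesterol because lipoproteins of the blood do not cross the blood-brain barrier, and myelin holds most of it.

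The promoters of Hmgcs1 and Insig1, the members with the highest ratios, are shown because sterol control of this pathway is read through such sequences. Both come from RefSeq on assembly GRCm38.p6 and cover the 250 bases before and the 50 bases after the gene start, at chr13:119690101-119690400 for Hmgcs1 and chr5:28071162-28071461 for Insig1, both on the plus strand. Capitals mark the letters of 4 motifs searched on both strands, namely TCACNCCAC, a sterol regulatory element consensus, its shorter core CACNCCAC, which lies inside the longer motif, CCAAT, the NF-Y box, and GGGCGG, the GC box.

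Hmgcs1: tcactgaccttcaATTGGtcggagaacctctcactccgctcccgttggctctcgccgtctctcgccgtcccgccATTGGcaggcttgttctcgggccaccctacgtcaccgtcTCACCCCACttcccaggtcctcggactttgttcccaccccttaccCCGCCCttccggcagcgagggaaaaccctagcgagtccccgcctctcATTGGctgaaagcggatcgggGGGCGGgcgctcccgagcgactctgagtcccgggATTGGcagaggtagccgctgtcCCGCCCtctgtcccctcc

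Insig1: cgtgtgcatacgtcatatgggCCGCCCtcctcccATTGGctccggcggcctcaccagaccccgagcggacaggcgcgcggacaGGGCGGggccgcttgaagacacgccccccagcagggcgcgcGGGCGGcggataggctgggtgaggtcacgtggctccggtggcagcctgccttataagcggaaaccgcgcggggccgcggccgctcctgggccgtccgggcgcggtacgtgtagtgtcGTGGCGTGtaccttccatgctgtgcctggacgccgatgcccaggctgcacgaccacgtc

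The Hmgcs1 promoter held TCACCCCAC, which starts at base -137 from the gene start, with 4 CCAAT boxes and 3 GC boxes. The longer sterol motif was present in 1.24% of 32841 mouse promoters of the same length. The Insig1 promoter held the shorter core on the minus strand, written GTGGCGTG on the gene strand from base -9, and this core was present in 6.24% of promoters. It also held 1 CCAAT box and 3 GC boxes, motifs that 37.4% and 35.7% of promoters held at least once. The Nsdhl promoter, on chromosome X, held 4 CCAAT boxes and 1 GC box and neither sterol motif in this window. Promoters of Fdps, Fdft1, Sqle and Stard4 were not searched, so nothing can be said of their motifs. These matches describe letters in a window and were not tied to the array ratios.

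The ratios are log2 values of separated over non-separated, after background correction and loess normalisation within each array. For each gene the brightest spot was read, and each dye orientation was averaged first and both averages then counted equally. A call needed a difference of 1.5-fold or more and 1 sign on all 10 arrays. The direction rests on the dyes that the labels give for each pool. Under it, the authors' deposited log2 table, whose direction is not stated, ran as non-separated over separated on all 10 arrays, with correlations of -0.956 to -0.916, and if the dyes were the other way round every sign below would turn. All spots of 1 orientation were scanned on the same day, so scan day and dye orientation cannot be told apart. The contrast of the pools was balanced over the dyes but not over scan day. A dye bias of a spot cancels from it only where that bias was equal on both days, which could not be tested.

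Among the arrays, median spot intensity was 269 to 489 in Cy5 and 404 to 929 in Cy3. The median SD over 10 arrays was 0.49 for all genes and 0.32 for the 1794 genes, or 14.5%, that exceeded the 95th percentile of empty spots in either dye on at least 8 of 10 arrays, called here above empty spots. Across those 1794 genes the mean ratios of the 2 orientations correlated at -0.38, and across all 12388 genes at -0.17, where genes are not independent replicates. Across genes, the ratios of the orientations thus ran on the whole in opposite directions. Of the listed genes of PVN neurons, the peptide genes Avp, Oxt, Trh and Sst were measured and 0 of 4 were above empty spots. Crh, Sim1 and Otp were not matched by name. In a punch of tissue, fewer cells of a type and less RNA per cell cannot be told apart.

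Hmgcs1 was the 1 member called higher in the separated pool, at 1.59-fold, and 5 of the 7 members lay above 0 in both dye orientations. Insig1, Fdft1, Sqle and Nsdhl had ratios between 0.18 and 0.38, below the 1.5-fold limit, while Fdps and Stard4 lay below 0 on average. Of all genes, 0.0565% were called higher and 0.202% lower, and 20.6% lay above 0 and 22.4% below 0 in the means of both orientations. The median of the 7 members was 0.22, against 0.0060 over all genes and 0.03 over the genes above empty spots. Their median was above 0 on 10 of 10 arrays, from 0.03 to 0.55, and it was 0.13 on the Cy5-separated and 0.31 on the Cy3-separated arrays.

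**Figure D1:**
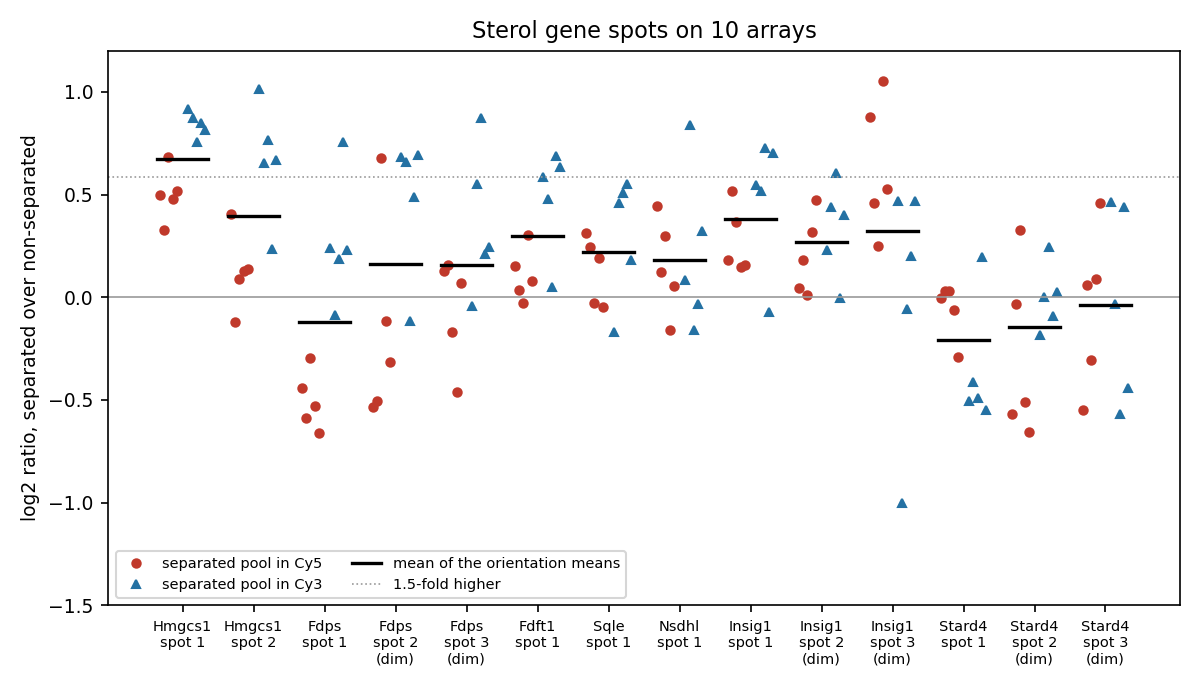
Log2 ratio of separated over non-separated (vertical axis) for all 14 spots, with 1 point per array, red circles for the 5 Cy5-separated arrays, blue triangles for the 5 Cy3-separated arrays, and a black bar for the average over both orientations. The first Hmgcs1 spot is the 1 spot with all 10 points above 0, and spots marked dim were above empty spots on fewer than 8 arrays.

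The first step of the set is Hmgcs1, cytosolic HMG-CoA synthase, which joins acetoacetyl-CoA and acetyl-CoA into HMG-CoA, a precursor of mevalonate. On the Cy5-separated arrays its brightest spot gave log2 ratios of 0.50, 0.33, 0.68, 0.48 and 0.52, and on the Cy3-separated arrays ratios of 0.92, 0.87, 0.75, 0.85 and 0.81. Every array was above 0, and all 5 arrays of the Cy3 orientation were above all 5 of the Cy5 orientation. The average was 0.67 ± 0.20 (SD, n = 10 arrays). The Cy5 orientation alone averaged 0.50 ± 0.13, under the 1.5-fold limit of 0.585, and the Cy3 orientation alone 0.84 ± 0.06, so the call was lost on the Cy5-separated arrays by themselves. The normalised intensity had a lowest, median and highest value of 4802, 10604 and 16211 in the separated pool, against 2846, 7557 and 8590 in the non-separated pool. The levels of the pools overlapped between arrays, and on each of the 10 arrays the separated pool was the higher one. In all, 54 genes, 0.436% of all, were above 0 on all 10 arrays at any size, and 27 of the genes above empty spots, 1.51% of them. Below 0 on all 10 arrays were 1.14% of all genes and 4.18% of those above empty spots, the shares that would apply if the signs were turned. By its ratio Hmgcs1 ranked 19 of 12388 genes from the highest, or from the lowest with the signs turned, and 57 by size in either direction, which describes the choice. The second Hmgcs1 spot was also above empty spots on 10 arrays but lay lower, at 0.40 ± 0.36, with 9 of 10 arrays above 0 and a Cy5 orientation mean of 0.13. The average over both spots therefore missed the call, with a value of 0.53.

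Fdps, farnesyl diphosphate synthase, makes the isoprenoid at which the routes to sterols, prenylated proteins and dolichol part. Its brightest spot gave -0.44, -0.59, -0.29, -0.53 and -0.66 on the Cy5-separated arrays, and 0.24, -0.09, 0.19, 0.76 and 0.23 on the Cy3-separated arrays. The 2 orientations did not overlap and had opposite mean signs, so the average of -0.12 ± 0.46 gave no direction for the pools. The spot had a median intensity of 6626 in the separated pool and 7805 in the non-separated pool. On the fourth array of the Cy3 orientation, which had the lowest median Cy5 intensity of the 10, its levels were 812 in the separated pool and 481 in the non-separated pool, the lowest of all arrays in both. The other 2 Fdps spots had averages of 0.16 ± 0.53 and 0.16 ± 0.37, were above empty spots on only 3 and 2 arrays, and also had lower means in the Cy5 orientation. Without the fourth array the average of the brightest spot was -0.18.

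Fdft1, squalene synthase, joins farnesyl diphosphate molecules into squalene and commits them to sterols. Its single spot gave 0.15, 0.04, -0.03, 0.30 and 0.08 on the Cy5-separated arrays, and 0.59, 0.48, 0.05, 0.69 and 0.63 on the Cy3-separated arrays. The average was 0.30 ± 0.28, with 9 of 10 arrays above 0 and most of the size in the Cy3 orientation. Normalised intensity ran from 1263 over a median of 2801 to 5861 in the separated pool, and from 784 over 2111 to 5025 in the non-separated pool. Sqle, squalene epoxidase, adds the oxygen to squalene and is a rate-limiting step of the later pathway. It gave 0.31, 0.24, -0.03, 0.19 and -0.05 on the Cy5-separated arrays, and -0.17, 0.46, 0.51, 0.55 and 0.18 on the Cy3-separated arrays. Its average of 0.22 ± 0.25 was smaller than its array SD, and 7 of 10 arrays were above 0. Nsdhl, a sterol dehydrogenase that helps to remove the methyl groups at carbon 4 of the ring, gave 0.44, 0.12, 0.30, -0.16 and 0.05 on the Cy5-separated arrays, and 0.09, 0.84, -0.16, -0.03 and 0.32 on the Cy3-separated arrays. Its average was 0.18 ± 0.31, again with 7 of 10 arrays above 0 and the orientations overlapping. The median intensity of Nsdhl was 2375 in the separated pool and 2124 in the non-separated pool, and that of Sqle was 2788 in the separated pool and 2390 in the non-separated pool.

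Insig1 encodes the endoplasmic reticulum protein that retains SCAP when sterols are high, and it is itself a target of SREBP. Its brightest spot gave 0.18, 0.52, 0.37, 0.15 and 0.16 on the Cy5-separated arrays, and 0.55, 0.52, 0.73, -0.07 and 0.70 on the Cy3-separated arrays. The average was 0.38 ± 0.27, and 9 of 10 arrays were above 0, the exception being the fourth array of the Cy3 orientation. Its intensity had a lowest, median and highest value of 1911, 5416 and 8184 in the separated pool, against 1814, 4676 and 5644 in the non-separated pool. The second spot had 0.27 ± 0.21 with 9 of 10 arrays above 0, and the dimmest had 0.32 ± 0.56 with 8 of 10. Insig1 was the member whose 3 spots all lay above 0 with averages of similar size, although only the brightest was above empty spots on at least 8 arrays. The dimmest was above empty spots on 0 arrays. Its mean was 0.63 on the Cy5-separated and 0.02 on the Cy3-separated arrays, the reverse order of the other spots. Counting members above 0 on at least 9 of 10 arrays gave Hmgcs1, Insig1 and Fdft1, 3 of 7, a rule that 2.38% of all genes met, while 3.66% were below 0 on at least 9 arrays. Without the fourth array of the Cy3 orientation Insig1 was above 0 on every remaining array, and without the third array of the Cy5 orientation Fdft1 was, which made 2 such members in place of 1.

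Stard4, a soluble carrier of cholesterol between membranes and likewise a known SREBP target, lay on the other side of 0. Its brightest spot gave -0.00235, 0.03, 0.03, -0.06 and -0.29 on the Cy5-separated arrays, and -0.50, -0.41, -0.49, 0.20 and -0.55 on the Cy3-separated arrays. The average of -0.21 ± 0.27 was smaller than its array SD, and 3 of 10 arrays were above 0. Its median intensity was 2692 in the separated pool and 2988 in the non-separated pool. The other spots had -0.14 ± 0.34 and -0.04 ± 0.41, so 0 of the 3 Stard4 spots lay above 0 on average. Across the 14 spots, 10 had averages above 0 and 4 below, namely all 3 of Stard4 and the brightest of Fdps.

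**Figure D2:**
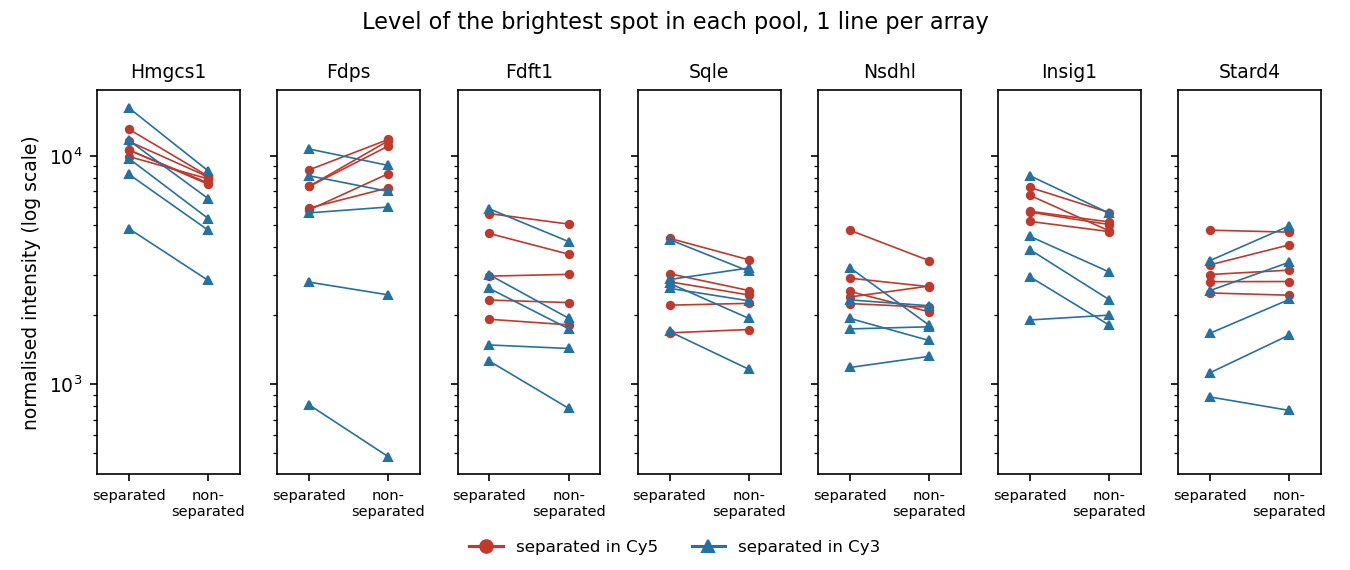
Normalised intensity (log scale, arbitrary units) of the brightest spot of each gene in the separated pool (left) and the non-separated pool (right) of each panel, with 1 line per array, red for Cy5-separated and blue for Cy3-separated arrays. All 10 Hmgcs1 lines are higher on the separated side, whereas the Fdps lines cross by dye.

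The mean log2 Cy5 over Cy3 of a spot, with both orientations counted equally, is called the dye term here. It could be tested, since the members were not chosen on it. A term below 0 means a larger ratio on the Cy3-separated arrays. Because it averages both scan days, a dye bias that differed between the days falls in the contrast of the pools instead. In a limma fit of Cy5 over Cy3 with a separation term, 1 of the 14 spots had a dye term that passed the Benjamini-Hochberg threshold of 0.05 over all 22818 spots. This was the brightest Fdps spot, with -0.38 ± 0.096 (SE) and an adjusted p of 0.0413, and for the other 13 spots the limma adjusted p lay between 0.122 and 0.979. Over the whole array 5.49% of spots passed. This call sat close to the threshold: it held in 3 of 14 alternatives, with limma adjusted p values of 0.00856 to 0.118 over them, and with 1 of the 10 arrays left out in turn it held in 1 of 10. The dye term was below 0 for 12 of 14 spots, against 50.8% of all spots. Read by brightest spot, the same quantity gave 6 of 7 members a larger ratio on the Cy3-separated arrays, against 50.6% of all genes. All of these spots share the same 10 arrays.

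**Figure D3:**
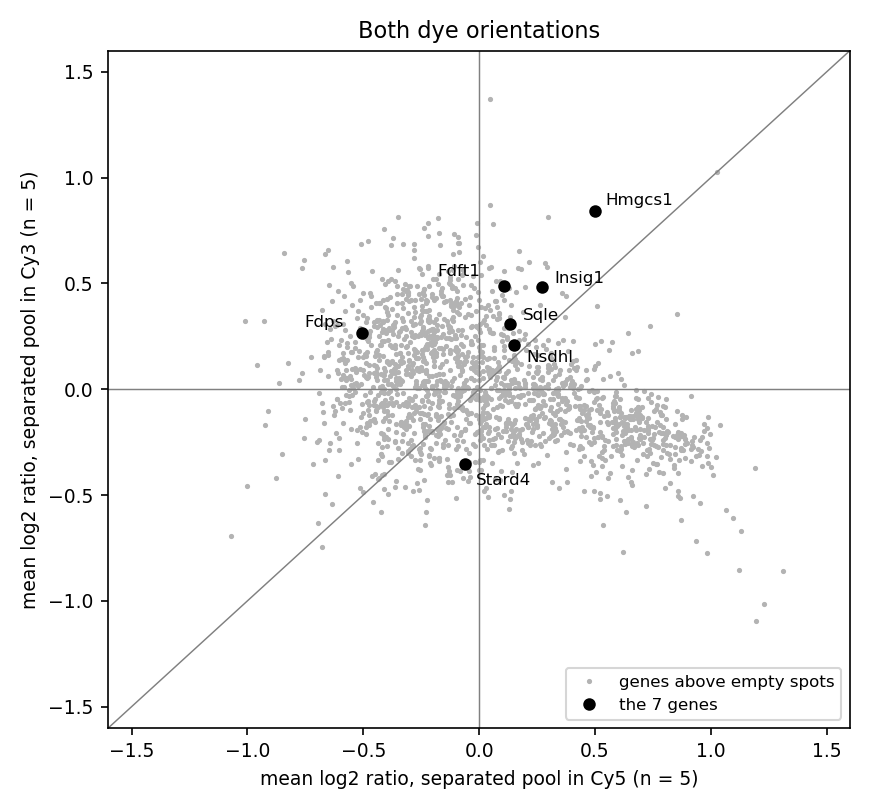
Mean log2 ratio of separated over non-separated on the 5 Cy5-separated arrays (horizontal) against that on the 5 Cy3-separated arrays (vertical), with grey points for the 1794 genes above empty spots, black points for the 7 genes and a diagonal line of equal ratios. Hmgcs1 lies at 0.50 and 0.84, outside most of the cloud, while Fdps lies in the quadrant of opposite signs.

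Of the rest of sterol synthesis, 18 of 20 listed genes were measured and 0 were called in either direction. Their median was 0.02, with 10 above and 8 below 0, beside the all-gene median of 0.0060, and only Lbr of the 18 was above empty spots. The members were brighter than most of these neighbours in the route. The brightest spot of each member was at the 88.4th to 97.6th percentile of all spots, and 7 of 7 were above empty spots. There were exceptions: Lbr, at a mean log2 brightness of 13.14, was brighter than Hmgcs1, the brightest member, at 12.98. Acat1, at 11.31, was brighter than Nsdhl at 11.13. The genes of this list and the lists below were chosen with earlier results of these arrays known. Each list gene is given by its brightest spot; where a gene had several spots, their averages differed in sign for 5 of 8 such genes in this list, 2 of 5 in sensing and uptake, 5 of 13 in export and storage, 6 of 8 among the fatty acid genes and 3 of 5 in isoprenoid use.

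In the steps around mevalonate, Acat1, acetoacetyl-CoA thiolase, had 0.03 ± 0.30. The kinases Mvk and Pmvk had -0.03 ± 0.41 and 0.05 ± 0.49, the decarboxylase Mvd had 0.31 ± 0.57 and the isomerase Idi1 had -0.04 ± 0.57. None of these averages exceeded its array SD. On the branches after Fdps, Ggps1, which makes geranylgeranyl diphosphate, had -0.20 ± 0.44, and Dhdds, of dolichol synthesis, had -0.12 ± 0.70.

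In the ring-forming and later steps, Lss, lanosterol synthase, had -0.12 ± 0.69, and Cyp51, lanosterol demethylase, had 0.33 ± 0.41. The sterol reductases Tm7sf2 and Lbr had 0.19 ± 0.41 and -0.01 ± 0.23. Msmo1 and Hsd17b7, which act with Nsdhl on the same methyl groups, had 0.01 ± 0.34 and 0.05 ± 0.73. Ebp, the sterol isomerase, had 0.33 ± 1.08, the widest spread of the list, and was above empty spots on 0 arrays. Sc5d and Dhcr7, enzymes of the last steps to cholesterol, had -0.03 ± 0.30 and 0.17 ± 0.25. In each of these named later genes the array SD was larger than the average.

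**Figure D4:**
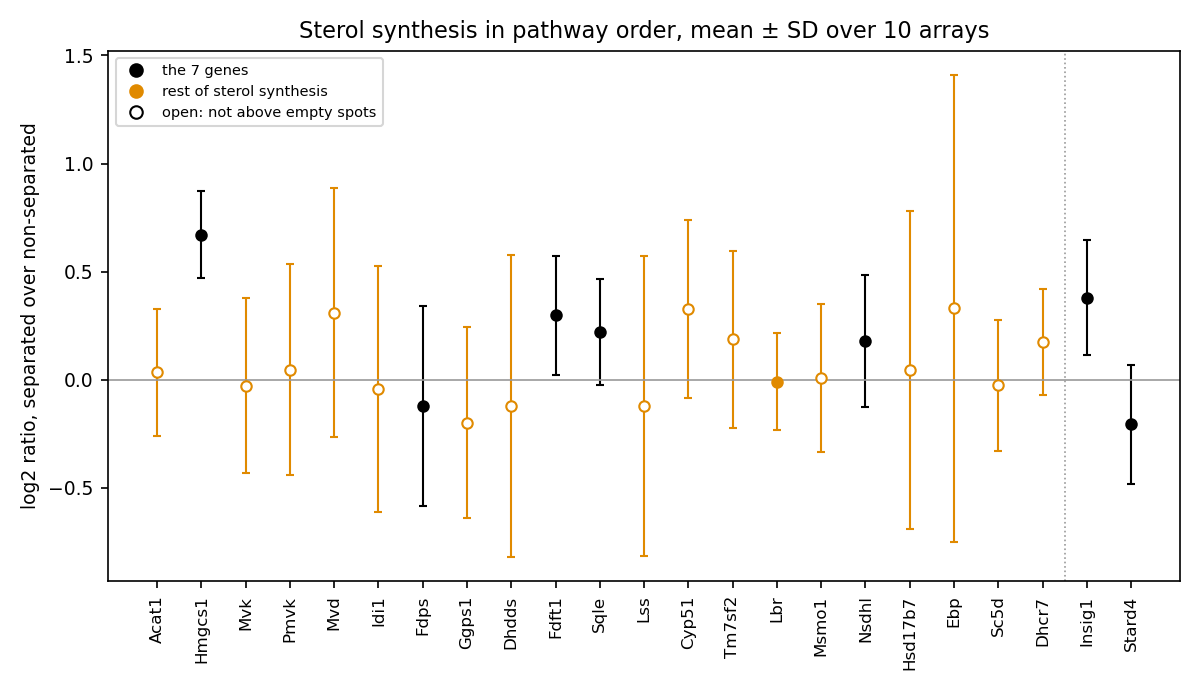
Log2 ratio of separated over non-separated (mean ± SD over 10 arrays) for synthesis genes in the order of the pathway, followed by Insig1 and Stard4 right of the dotted line; black marks the 7 genes, orange other synthesis genes, and open circles the genes not above empty spots. Hmgcs1, Fdft1 and Insig1 have bars that do not reach 0, and most orange points are open.

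**Figure D5:**
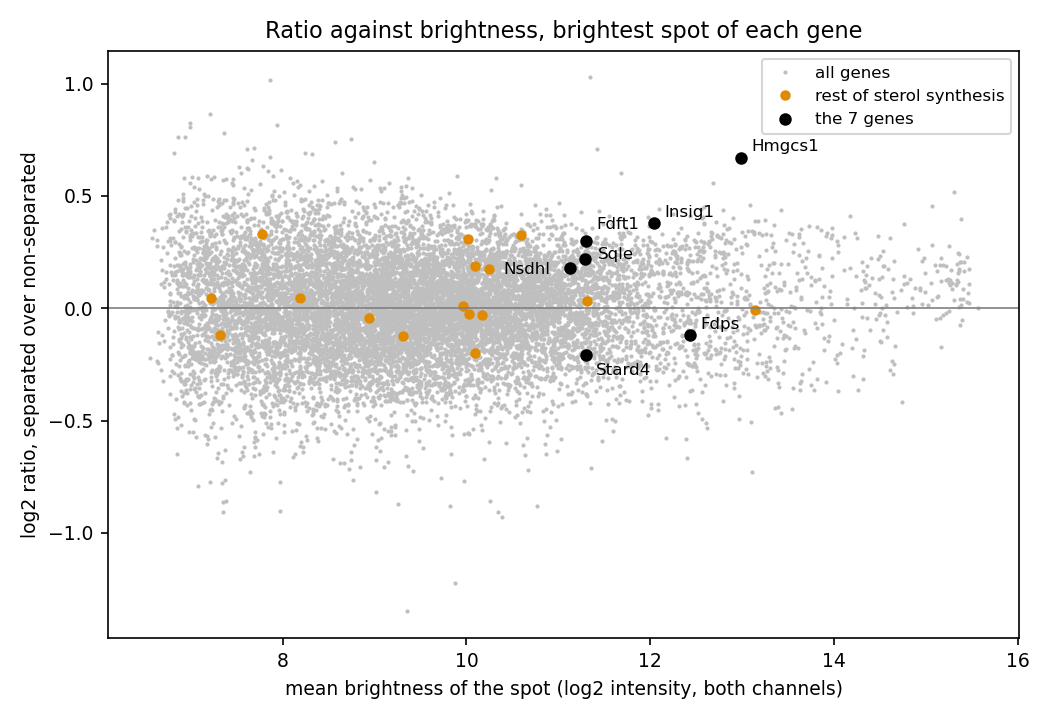
Log2 ratio of separated over non-separated (vertical) against the mean brightness of the spot in log2 units (horizontal) for the brightest spot of every gene, with all genes in grey, other sterol synthesis genes in orange and the 7 genes in black. The 7 genes lie among the bright spots, and most of the orange points are dimmer than each of them.

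Genes of sterol sensing and uptake gave 15 measured of 21, with 0 called and a median of -0.02. Of the 15, 5 were above empty spots, and of those named next only Scarb2 was. Among the highest were Scarb2, a lysosomal membrane protein, at 0.17 ± 0.56, and Srebf2, the gene of SREBP2, at 0.12 ± 0.49. The Scarb2 spot was very bright, at a mean log2 brightness of 15.37, and changed sign with the dye. Its mean was 0.61 on the Cy5-separated and -0.28 on the Cy3-separated arrays. The lowest were Npc1, which exports cholesterol from lysosomes, at -0.38 ± 0.71, Insig2, the relative of Insig1, at -0.32 ± 0.62, and Scarb1, a lipoprotein receptor, at -0.13 ± 0.72. Sterol export, storage and carriage gave 23 measured of 25, with 0 called and a median of 0.04. Only Apoe, 1 of the 23, was above empty spots, so the genes named next were not. The highest were Osbpl1a at 0.36 ± 0.33, whose other spot lay at -0.38, the lipocalin Apod at 0.32 ± 0.56 and Osbp at 0.22 ± 0.40. Osbpl1a and Osbp are oxysterol-binding relatives. On the low side were the sterol hydroxylase Cyp27a1 at -0.28 ± 0.73, the mitochondrial protein Tspo at -0.27 ± 0.42 and the cholesteryl ester hydrolase Nceh1 at -0.22 ± 0.32.

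Fatty acid genes that SREBP also controls gave 15 measured of 17, with 0 called and a median of -0.01. Above empty spots were 6 of the 15, Lpin1 and Acss2 not among them. The brightest spot of Fasn, fatty acid synthase, was below 0 on 10 of 10 arrays at -0.25 ± 0.13, a size under the limit for a call, but its other spot lay at 0.26. Lpin1 had -0.22 ± 0.45 and Elovl5 had -0.18 ± 0.25, while Acss2, acetyl-CoA synthetase, had 0.29 ± 1.08, Fads1, a fatty acid desaturase, had 0.22 ± 0.12 and Scd1, another desaturase, had 0.22 ± 0.64. The genes that use isoprenoids gave 10 measured of 12, with 0 called and a median of -0.09. Above empty spots were 6 of the 10, Rabggtb and Icmt not among them. Rabggtb at -0.56 ± 0.42 and Fntb at -0.36 ± 0.15, subunits of prenyltransferases, were below 0 on 10 of 10 arrays, and Icmt, which methylates prenylated proteins, had -0.25 ± 0.63. Pggt1b, a prenyltransferase subunit, had 0.33 ± 0.60 with orientation means of 0.89 and -0.24, Rabggta had 0.09 ± 0.49 and the protease Zmpste24 had 0.07 ± 0.32.

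The genes most like Hmgcs1 were sought by the smallest root mean square difference of the 10 array ratios, among 1787 other genes above empty spots. They were named on the array as transcription factor 7-like 2 (0.24), protease, serine, 25 (0.29), pleiotrophin (0.29), Plekhf1 (0.29) and lymphocyte antigen 6 complex, locus A (0.33), against a median difference of 0.78. Their own ratios were 0.56, 0.41, 0.44, 0.44 and 0.37 in that order, with 9 or 10 of 10 arrays above 0. Ratios above 0 follow from this search, since every array ratio of Hmgcs1 was above 0. No other member of the set was among the 5, since members were left out of this search.

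Astrocytes make much of the brain's cholesterol, and many of their markers lay lower in the separated pool. Of 14 astrocyte markers, 12 lay below 0, 3 were called lower (Aldoc, Agt and Gjb6) and the median was -0.33, below 0 on all 10 arrays. Of all genes 49% lay below 0 and 0.202% were called lower. The 2 markers above 0 were Fabp7, a fatty acid binding protein, at 0.19 ± 0.15 with 10 of 10 arrays above 0, and Glul, glutamine synthetase, at 0.18 ± 0.74. Only the brightest spot was read here: the 9 Glul spots ran from -0.99 to 0.29 with a median of -0.43. The summed intensity of the 14 markers had a lowest, median and highest value of 64395, 121732 and 152230 in the separated pool. In the non-separated pool these values were 90321, 123019 and 144349. On 4 of 10 arrays the separated sum was the higher one. A sum of intensities weighs the brightest markers most, here Glul and Fabp7, the 2 above 0, so it does not describe the other markers. Glul also changed sign with the dye, with means of 0.87 on the Cy5-separated and -0.51 on the Cy3-separated arrays. Of the 14 markers, 8 were above empty spots, Agt and Gjb6 not among them. The 4 PVN peptide genes had a median of -0.22 with 0 called, and Avp, vasopressin, had -0.53 ± 0.49 with 9 of 10 arrays below 0. Myelin markers had a median of 0.03 over 14 genes with 0 called, though Mbp, myelin basic protein, was below 0 on 10 of 10 arrays at -0.43 ± 0.27, and microglial, vascular and neuronal markers had medians of 0.09, -0.08 and -0.03 with 0 called. Above empty spots were 4 of 14 myelin, 1 of 9 microglial, 0 of 8 vascular and 6 of 8 neuronal markers. Where a marker had several spots, their averages differed in sign for 5 of 10 such astrocyte and 4 of 7 such myelin markers. This held for 1 of 1 microglial, 1 of 2 vascular, 2 of 5 neuronal and 0 of 1 PVN genes. The part of these markers in the member ratios was not tested.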

How the data were processed

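Per the file headers, spot intensity and local background were deposited by the authors as linear values from QuantArray, with a fixed circle and no background subtraction, for 24192 spots in 48 blocks per array. The authors also deposited log2 ratios for 19025 spots, with no processing stated in the labels or headers; these served only as an alternative. Local background was 0 for 91.5 to 99.9% of spots. Intensities were corrected with normexp (offset 50) and normalised by global loess within each array, with 1374 control spots, 1170 of them empty, at weight 0 (limma 3.58.1, R 4.3.3). No filter on dim spots was applied in the main setting. The number of arrays limits the precision, and no p-value for separation was computed because each group was 1 pool. The dye term was fitted with lmFit and eBayes and tested on simulated data.

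Spot names were tied to symbols by hand for the members and lists, and were not checked against clone sequences. The members and lists were chosen with earlier results of these data known. The genes named are the 7 members, all measured genes of the rest of sterol synthesis, every called gene and the 3 highest and 3 lowest of each other pathway list, and the 5 genes most like Hmgcs1. Avp, Mbp, Fabp7 and Glul fall outside this rule and were named after their values were seen. Results for 3 of these genes are left out here, though they stay in all counts and medians. Deviations of same-numbered arrays correlated at -0.022 to 0.027, so replicate numbers did not pair arrays. Promoters came from RefSeq, GRCm38.p6.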

Additional observations from a re-analysis of the deposited data

Results flagged for a closer look

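Among 28 groups of 5 arrays, 14 spots in 2 orientations, 3 held a value far from its other 4 arrays, where chance gives about 1 in 20 groups. The second Fdps spot was at -0.12 on the third of the Cy3-separated arrays (those that carried the separated pool in Cy3), against 0.49 to 0.69 on the other 4. The brightest Insig1 spot was at -0.0708 on the fourth such array, against 0.52 to 0.73. On the same array the brightest Stard4 spot was at 0.20, against -0.55 to -0.41.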

How the results depend on the processing

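Hmgcs1 was the member called higher under 21 of 23 alternatives. Many of these could hardly have removed the call, so the count does not measure stability. The 1.3-fold limit is looser, and the limits on empty spots left its ratio at 0.67. Leaving out 1 array moved the ratio only to between 0.65 and 0.69. Hmgcs1 was not called with the mean of all spots (0 members) or with the separated pool in Cy5 alone (0 members), where its ratio was 0.50. Its ratio lay between 0.50 and 0.84 over 22 alternatives. Fdft1, Sqle, Nsdhl and Insig1 were above 0 in all 22 and Stard4 in 0 of 22, and Fdps was above 0 in 2 of 22, the mean of all spots and the Cy3 orientation alone. No member was called lower in any of these. No member ratio moved by more than its array SD, but that SD spans both orientations. With 1 orientation alone or 1 array left out, the move could therefore not exceed it, so those settings do not test stability. With either orientation alone, which is also 1 scan day alone, 2 members were above 0 on every array; leaving out 1 array gave 1 to 2.

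Genes called higher numbered 7, with 11 under normexp with offset 0, 3 under print-tip loess, 3 for the mean of all spots, 3 above empty spots and 27 at a 1.3-fold limit. Genes called lower numbered 25, with 16 for the mean of all spots, 4 above empty spots and 84 at 1.3-fold. With the separated pool in Cy5 alone the counts were 553 higher and 416 lower, and with it in Cy3 alone 197 and 158; each needs only 5 arrays of 1 sign. Leaving out 1 array gave 6 to 17 higher. The dye term was called for 1252 spots, for 2926 under median centring, for 6 with the replicate block, and for 554 to 1145 with 1 array left out; the cause was not tested. Median centring made 4 of the 14 member spots pass the dye test and the replicate block 0. Brightness limits the reading: 6 of the 14 spots were not above empty spots.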
